A study of Mus musculus with 6 samples.

Results

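The genes described here are 7 homeobox genes of the HoxA and HoxB clusters, Hoxa5, Hoxa7, Hoxa9, Hoxa10, Hoxb2, Hoxb4 and Hoxb5, and the genes of the cofactors Meis1 and Pbx3. They were chosen by name. Every probe set that the array annotation gives to one of these 9 gene symbols was taken, which made 16 of the 45037 probe sets analysed; the probe sets with a single symbol stand for 18193 genes in all.

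Total RNA came from bone marrow cells of adult female mice aged 6 to 16 weeks, enriched for stem and progenitor cells by removing cells that carry markers of the mature blood lineages. C57B/L6 mice and B.D(Chr5) mice, whose genetic background is labelled B.D, gave 3 samples each, and each sample was hybridised to its own Affymetrix whole-genome mouse array. The mice were young adults in both strains, the labels name no treatment or engineered allele, and strain is the only factor. Samples of a strain are labelled biological replicates. Whether a replicate was 1 mouse or a pool is not given in the sources used here, so the spread behind each p-value is that of these samples and may be technical in part.

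Hox genes encode homeodomain transcription factors and lie in clusters, where a gene's place goes with where and when it is used in the embryo. In blood, genes of the HoxA and HoxB clusters are read mainly in stem and early progenitor cells and are turned down as cells mature. Meis and Pbx proteins belong to the TALE class of homeodomain proteins. They bind DNA together with Hox proteins and make their binding more selective, and Hoxa9 with Meis1 is a well known driver pair in acute myeloid leukaemia.

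Messages of stem and progenitor cells were measurable, which does not show enrichment, as no undepleted marrow was on the arrays. All 7 analysed genes of a stem and multipotent progenitor list (Kit, Cd34, Flt3, Gata2, Procr, Mecom and Hlf) and all 5 granulocyte-monocyte progenitor genes were above background on every array. None of 5 genes of other tissues was above it on all 6, but Gfap 1426508_at was on 5, at up to 3.41 times background. Of these 5 genes, 2 were at or below background on every array. Background was set on each array at the 95th percentile of 27 probe sets for bacterial genes that had not been spiked in, a control level of 21.8 to 38.0 signal units. The 2 highest of these levels were on B.D(Chr5) arrays 2 and 3, and 63.3% to 71.2% of all probe sets lay above it. Of the 3 analysed genes of mature myeloid cells 3 were above background on all 6 arrays, as were 5 of 5 B lymphoid, 4 of 4 erythroid, 4 of 4 megakaryocyte, 3 of 4 T and NK cell genes and 5 of 5 genes of stroma, bone and endothelium, so the samples were mixtures. Fewer cells of a type and less RNA per cell cannot be told apart in such bulk samples.

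The upstream sequences of Hoxa7, Hoxa9 and Hoxa10 are shown because these 3 neighbours of the HoxA cluster stood at different places against background in the same cells. Each is the 250 bases before the transcription start in RefSeq, build GRCm38.p6, minus strand, written 5′ to 3′, with every CG dinucleotide in capitals.
Hoxa7, chr6:52218574-52218823: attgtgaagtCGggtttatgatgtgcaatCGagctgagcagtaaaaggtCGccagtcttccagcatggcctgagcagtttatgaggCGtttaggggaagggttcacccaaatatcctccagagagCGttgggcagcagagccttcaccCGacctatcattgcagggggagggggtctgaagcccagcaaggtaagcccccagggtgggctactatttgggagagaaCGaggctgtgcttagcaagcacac
Hoxa9, chr6:52227371-52227620: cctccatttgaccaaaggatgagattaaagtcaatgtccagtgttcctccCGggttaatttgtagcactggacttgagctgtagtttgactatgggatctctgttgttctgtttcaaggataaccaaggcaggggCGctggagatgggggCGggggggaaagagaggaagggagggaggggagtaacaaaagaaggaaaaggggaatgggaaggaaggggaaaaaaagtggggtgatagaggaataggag
Hoxa10, chr6:52240855-52241104: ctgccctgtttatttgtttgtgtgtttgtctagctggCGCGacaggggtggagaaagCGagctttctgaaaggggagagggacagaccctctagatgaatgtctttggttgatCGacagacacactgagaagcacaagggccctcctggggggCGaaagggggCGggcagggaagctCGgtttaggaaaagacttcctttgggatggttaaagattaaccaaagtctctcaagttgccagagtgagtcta
The Hoxa9 window holds 3 CG dinucleotides and overlaps 1 other annotated gene, and the Hoxa7 and Hoxa10 windows hold 7 each, against a median of 6 over 32851 promoter windows of this length. Fewer CG dinucleotides than in Hoxa9 were found in 29.0% of these windows, and fewer than in Hoxa7 or Hoxa10 in 53.7%. The letters of a Pbx-Hox composite motif (TGATTGAT, in 0.67% of all windows on either strand), of its Hoxa9 form (TGATTTAT, 0.837%), of a Meis motif (TGACAG, 15.9%) and of a TATA box (TATAAA, 12.4%) were not in these 3 windows. Hoxa10 has another annotated start, whose window differs in both respects, with 20 CG dinucleotides and 1 match to the TATA box letters. Of the 9 genes, 6 have a promoter entry in the table used. The windows of Hoxa5, Hoxb4 and Meis1, not printed here, hold 28, 14 and 13 CG dinucleotides.

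Of the 9 genes, 7 were above background on all 6 arrays: Hoxa5, Hoxa9, Hoxa10, Hoxb2, Hoxb4, Meis1 and Pbx3. They did so through 13 of the 16 probe sets, beside 55.3% of all probe sets on the array. Against another level, the 95th percentile of 8 probe sets for genes of other tissues, 9 probe sets of 5 genes remained above on all 6, and Hoxa10 and Hoxb2 did not. Hoxa7 was above background on 3 arrays and Hoxb5 on 0. Signals of different probe sets depend on their own probes, so each probe set below is set against the array's background and not against another gene.

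**Figure D1:**
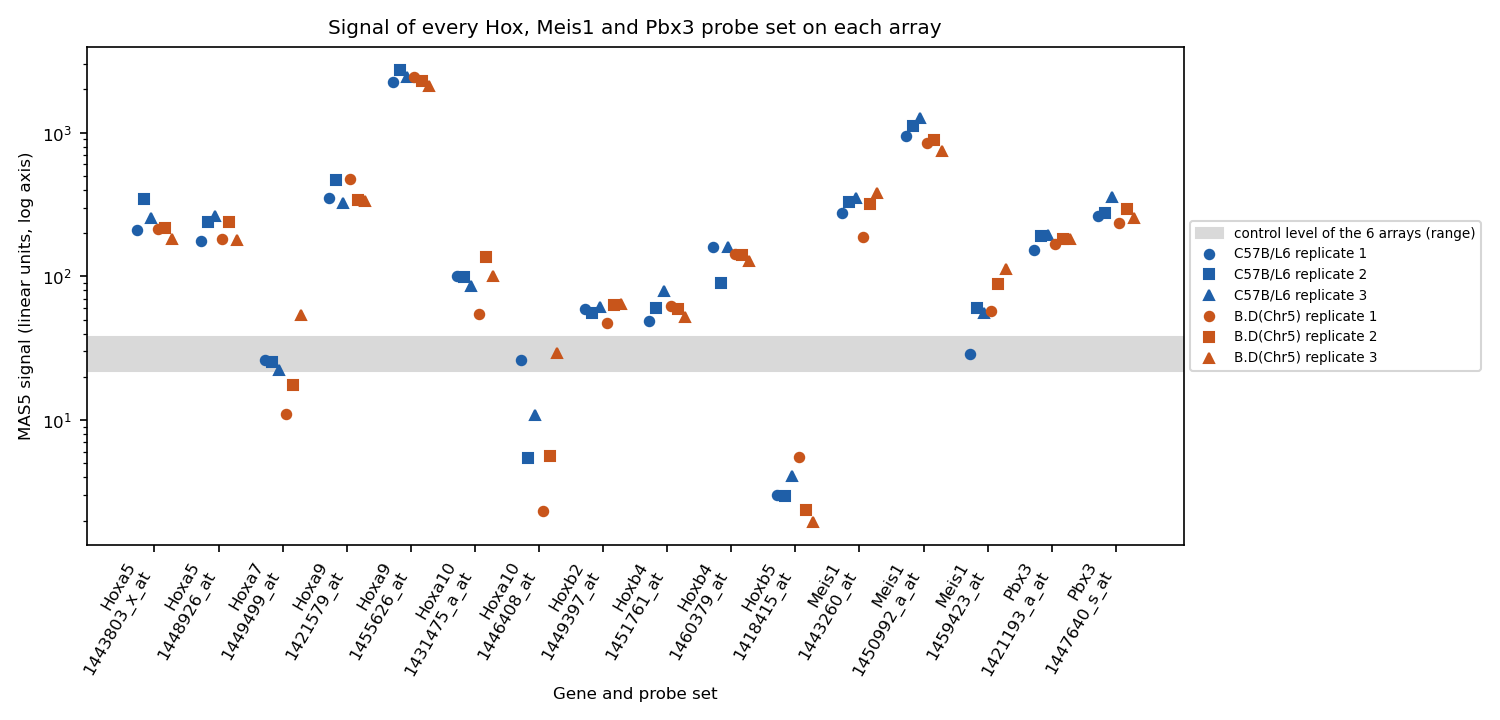
Signal of the 16 probe sets of the 9 genes (log axis, MAS5 linear units) on each of the 3 C57B/L6 and 3 B.D(Chr5) arrays; each point is 1 array and the grey band is the range of the arrays' background levels, 21.8 to 38.0. The Hoxa9 probe set 1455626_at lies between 2109.8 and 2743, Hoxb5 lies below the band on all 6 arrays, and Hoxa7 runs from 11.1, below the band, to 54.2, above it. Hoxa10 1446408_at runs from 2.35 to 29.3, with 4 of 6 points below the band and 2 inside it.

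Hoxa9 encodes a factor needed for normal numbers of blood progenitors. Its probe set 1455626_at read 2246, 2743 and 2441 in C57B/L6 and 2444, 2284 and 2109.8 in B.D(Chr5), with means of 2477 ± 250.3 and 2279 ± 167 (SD, n = 3 each). The strains overlapped, and the signal was 55.6 to 126 times the array's background. The second Hoxa9 probe set, 1421579_at, read 351, 467 and 323 in C57B/L6 and 479, 340.2 and 335 in B.D(Chr5), or 8.83 to 21.4 times background. The highest value here came from B.D(Chr5) array 1 and the next from C57B/L6 array 2, so no strain stood above the other.

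Hoxa5 encodes a factor that acts in the balance of myeloid and erythroid maturation. Its probe set 1448926_at read 176, 237 and 262 in C57B/L6 and 182, 240.1 and 178 in B.D(Chr5). Probe set 1443803_x_at, whose suffix marks probes that may also match other transcripts, read 210.4, 346 and 256 in C57B/L6 and 213, 215 and 182 in B.D(Chr5). Both were at least 4.68 times background on every array, C57B/L6 arrays 2 and 3 gave 2 of the highest 3 values of each, and the strains overlapped in both.

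Hoxa10, the neighbour of Hoxa9, encodes a factor of early myeloid and megakaryocytic progenitors. Its probe set 1431475_a_at read 100.1, 99.5 and 86.0 in C57B/L6 and 54.7, 137 and 101 in B.D(Chr5), or 2.34 to 4.56 times background. Both the lowest and the highest value came from B.D(Chr5), where the SD of 41.4 was larger than the 7.95 of C57B/L6. The other Hoxa10 probe set, 1446408_at, read 26.2, 5.43 and 10.9 in C57B/L6 and 2.35, 5.62 and 29.3 in B.D(Chr5), and was above background on 1 array. The probe sets of Hoxa10 therefore disagreed on whether its message was measurable.

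Hoxa7 lies between Hoxa9 and Hoxa5 among the genes measured here and, like Hoxa9, is turned on by MLL fusion proteins in leukaemia. Its only probe set, 1449499_at, read 26.0, 25.4 and 22.2 in C57B/L6 and 11.1, 17.4 and 54.2 in B.D(Chr5). It was above background on C57B/L6 arrays 1 and 2 and on B.D(Chr5) array 3, at 0.473 to 1.43 times that level over the 6 arrays. These values lie around the limit of what the array measured, and on either side of Hoxa7 the genes Hoxa5 and Hoxa9 were above background on all 6.

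Hoxb4 is known for expanding blood stem cells when supplied in excess. Its probe set 1460379_at read 159, 90.6 and 160.3 in C57B/L6 and 144, 141 and 128 in B.D(Chr5). C57B/L6 array 2 was the lowest of the 6 and the other 2 C57B/L6 arrays the highest, so the B.D(Chr5) values lay between them. Probe set 1451761_at read 48.7, 59.9 and 78.4 in C57B/L6 and 62.1, 59.1 and 52.3 in B.D(Chr5), or 1.38 to 3.21 times background.

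Hoxb2 lies near the low-numbered end of its cluster and is best known for patterning the hindbrain. Its probe set 1449397_at read 59.2, 55.3 and 60.7 in C57B/L6 and 47.6, 62.7 and 64.6 in B.D(Chr5), with means of 58.4 ± 2.81 and 58.3 ± 9.32 (SD, n = 3 each). The signal was 1.70 to 2.60 times background, close to it but above it on each array. Hoxb5 is known as a marker of long-term stem cells, which are a small share of lineage-negative marrow. Its probe set 1418415_at read 3.03, 2.97 and 4.08 in C57B/L6 and 5.55, 2.39 and 1.94 in B.D(Chr5), at most 0.237 times background, so no fold change is given.

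**Figure D2:**
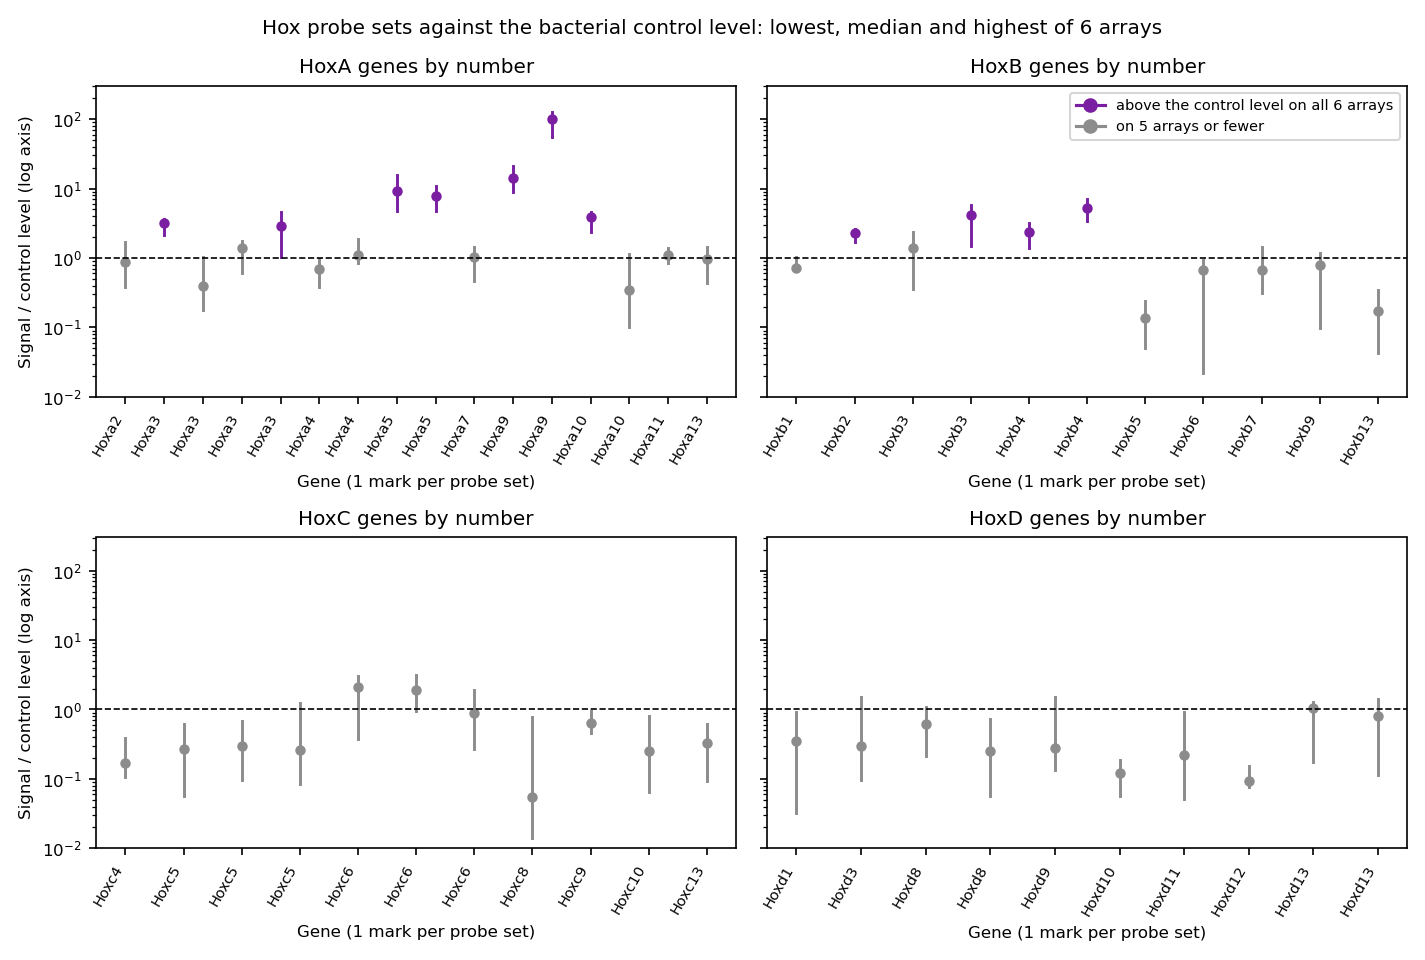
Signal over the array's background level (log axis) for every Hox probe set analysed, by cluster and gene number; points are medians of the 6 arrays, lines run from the lowest to the highest array, and the dashed line marks the background level. Purple marks, above background on all 6 arrays, are found at Hoxa3, Hoxa5, Hoxa9, Hoxa10, Hoxb2, Hoxb3 and Hoxb4, and no HoxC or HoxD probe set carries one.

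The other genes of the clusters give the setting for these 7. Hoxa3 was the only other gene above background on all 6 arrays among 5 HoxA genes with a probe set, and Hoxb3 the only one among 6 HoxB genes. Hoxa3 and Hoxb3 are paralogues of the front end of their clusters. Hoxa3 1427433_s_at read 77.3, 80.0 and 88.0 in C57B/L6 and 67.1, 94.6 and 82.1 in B.D(Chr5), and Hoxb3 1456229_at read 60.7, 121 and 144 in C57B/L6 and 102, 47.0 and 149 in B.D(Chr5). The strains overlapped in both. Hoxa3 1452421_at was also above background on all 6 arrays, but Hoxa3 1431392_at and Hoxb3 1427605_at were above it on 4 and Hoxa3 1429398_at on 1. Of 7 HoxC and 8 HoxD genes with a probe set 0 were above background on all 6 arrays, and Hoxc6 came closest, on 5. Hoxb2, Hoxb3 and Hoxb4 are neighbours on chromosome 11, beyond which Hoxb5 was below background. Of these neighbours only Hoxb4 also passed the level from genes of other tissues. Hoxa6, Hoxb8, Hoxc11, Hoxc12 and Hoxd4 were not analysed here.

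Meis1 encodes the cofactor that joins Hoxa9 and Pbx proteins on DNA and is needed to keep blood stem cells. Its probe set 1450992_a_at read 946, 1117 and 1264 in C57B/L6 and 840.5, 892 and 749 in B.D(Chr5), or 19.7 to 51.7 times background. All 3 B.D(Chr5) values lay below all 3 C57B/L6 values, with a gap from 892 to 946 between the strains. Probe set 1443260_at read 276, 331 and 352 in C57B/L6 and 188, 320.5 and 382 in B.D(Chr5). Here the strains overlapped, and the lowest and the highest of the 6 values both came from B.D(Chr5). Probe set 1459423_at, 1.26 to 2.96 times background, read 28.9, 60.5 and 55.6 in C57B/L6 and 57.3, 88.2 and 112 in B.D(Chr5), so that the order of the strain means was the opposite of that in 1450992_a_at.

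**Figure D3:**
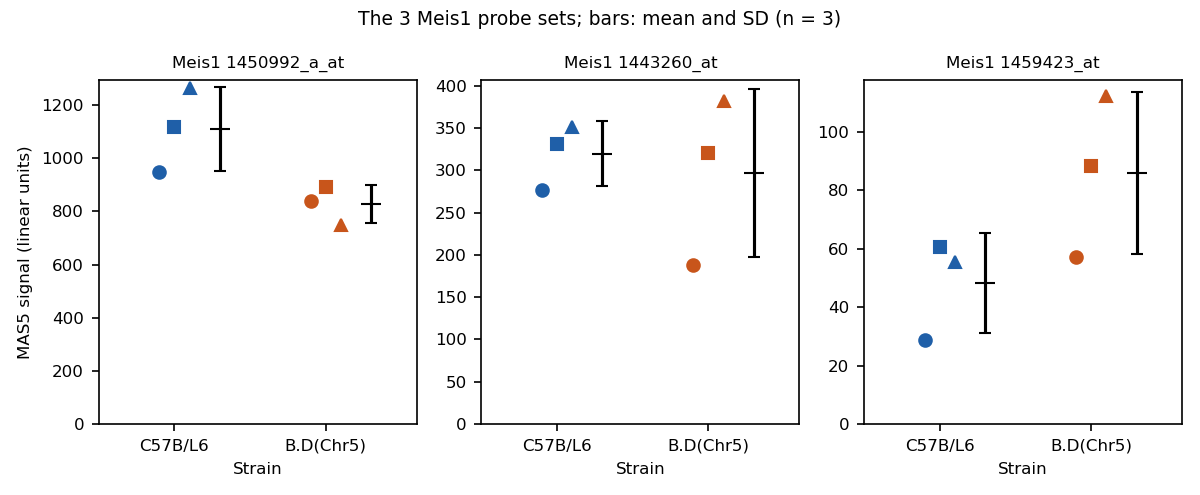
Signal (MAS5 linear units, each panel with its own axis from 0) of the 3 Meis1 probe sets on the 3 C57B/L6 and 3 B.D(Chr5) arrays; circles, squares and triangles are replicates 1, 2 and 3, and the bars are mean and SD. The strain means are 1109 against 827 in 1450992_a_at, 319.7 against 297 in 1443260_at and 48.3 against 85.9 in 1459423_at, for C57B/L6 against B.D(Chr5).

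Pbx3 encodes a Pbx protein that pairs with Hox and Meis proteins and is often expressed with Hoxa9 and Meis1 in leukaemia. Its probe set 1421193_a_at read 153, 189 and 194 in C57B/L6 and 168, 182 and 180.5 in B.D(Chr5), or 4.76 to 8.69 times background. Probe set 1447640_s_at read 261, 277 and 359 in C57B/L6 and 235, 295 and 256 in B.D(Chr5), or 6.75 to 14.7 times background. The strains overlapped in both, and the 6 arrays stayed within a narrow range in the first. Pbx2, Pbx4 and Pknox1 were the other TALE genes above background on all 6 arrays, of 6 with a probe set. Pbx2 1418893_at read 1062, 1032 and 1376 in C57B/L6 and 1118, 1116 and 1279 in B.D(Chr5). Pknox1, whose protein also pairs with Pbx proteins, read 571, 588 and 585 in C57B/L6 and 675, 562 and 754 in B.D(Chr5) on 1421233_at.

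The comparison of B.D(Chr5) with C57B/L6 asks whether marrow progenitors of the strain named for chromosome 5 carry other levels of these messages. None of the 9 genes lies on chromosome 5: the HoxA genes are on chromosome 6, the HoxB genes and Meis1 on 11 and Pbx3 on 2. No probe set of the 9 genes passed the test. With limma and Benjamini-Hochberg adjustment over 22518 probe sets, 0 of the 10 probe sets bright enough to be tested were called, beside 0.182% of all tested probe sets (41 called; 0.0933% higher and 0.0888% lower in B.D(Chr5)), and 1 of the 10 had an unadjusted p under 0.05, beside 4.73%. The tested probe sets belong to Hoxa5, Hoxa9, Hoxa10, Hoxb4, Meis1 and Pbx3, up to 2 per gene, and are not independent of each other. The 6 others fell below the upper 50% of mean signal, though 3 of them (Hoxb2, Hoxb4 1451761_at and Meis1 1459423_at) were above background on all 6 arrays.

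**Figure D4:**
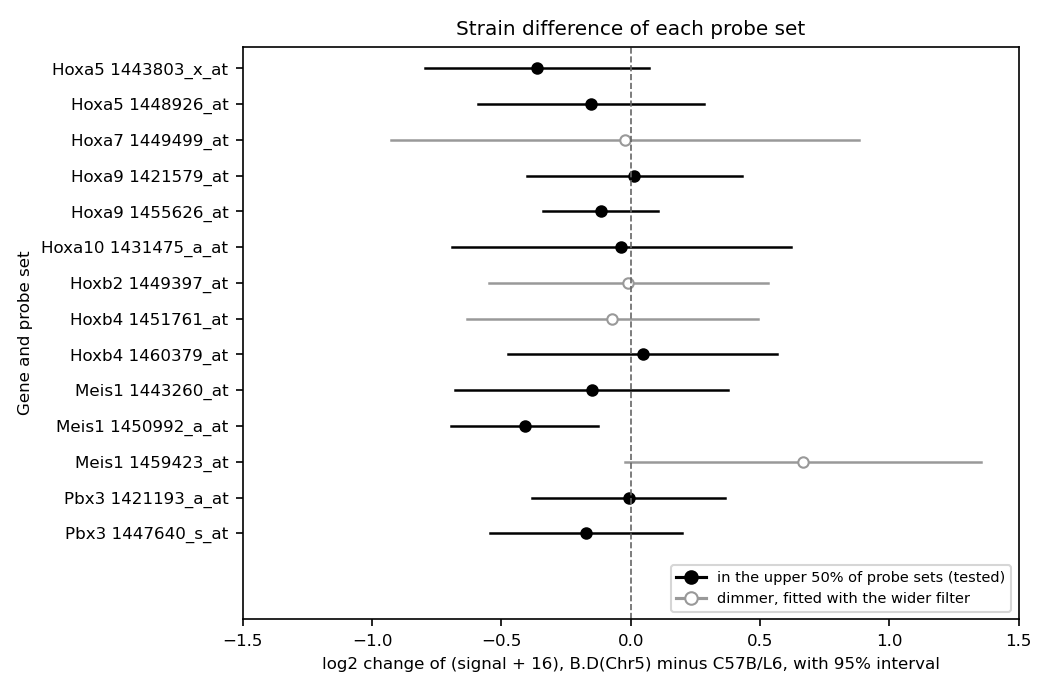
Difference of log2(signal + 16), B.D(Chr5) minus C57B/L6, with its 95% interval from limma, for each probe set of the 9 genes that could be fitted; black marks are the 10 tested probe sets and open grey marks are dimmer ones fitted with a wider filter. Black intervals all lie between -0.80 and 0.62, and of the black marks Meis1 1450992_a_at alone, at -0.41, has an interval clear of 0.

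Differences between strains are given on the scale of log2(signal + 16), which understates changes of dim probe sets. Over the 10 tested probe sets they ran from -0.41 to 0.05 with a median of -0.13, beside a median of 0.00 over all tested probe sets. The difference was below 0 in 8 of the 10, beside 49.8% of all tested. Every one of the 10 intervals excluded a doubling and a halving of signal + 16, with a lowest bound of -0.80 and a highest of 0.62. The precision was somewhat poorer than usual on these arrays, with a median SE of 0.19 beside 0.15 over all tested probe sets.

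The largest difference of the 10 was in Meis1. On 1450992_a_at signal was lower in B.D(Chr5) by a log2 difference of -0.41 (SE 0.13, 95% interval -0.69 to -0.13), with unadjusted p = 0.00932 and adjusted p = 0.753 in limma. It was the only one of the 10 whose strains did not overlap, beside 9.38% of all tested probe sets (5.24% lower and 4.14% higher in B.D(Chr5)). With 1 array left out in turn the difference ran from -0.52 to -0.31. On 1443260_at the difference was -0.15 (95% interval -0.68 to 0.38), and it became 0.13 without B.D(Chr5) array 1. On the dim 1459423_at, fitted only when every probe set above background on 3 or more arrays was kept, it was 0.67 (95% interval -0.02 to 1.35). The 3 probe sets of Meis1 thus gave no common direction.

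In the HoxA genes the differences were within the spread of the replicates. Hoxa5 1443803_x_at differed by -0.36 (SE 0.19, 95% interval -0.80 to 0.07) and Hoxa5 1448926_at by -0.15 (SE 0.20, -0.59 to 0.28). Hoxa9 1455626_at had the smallest error of the 10, with a difference of -0.12 (SE 0.099, 95% interval -0.34 to 0.10). Hoxa9 1421579_at differed by 0.01 (SE 0.19, -0.40 to 0.43), a sign that turned with quantile normalisation to -0.0070. Hoxa10 1431475_a_at differed by -0.04 (SE 0.29, -0.69 to 0.62) and by 0.27 without B.D(Chr5) array 1, so its direction rests on that array. Hoxa7, fitted with the wider filter alone, differed by -0.02 (95% interval -0.93 to 0.88), the widest interval of those shown.

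In the HoxB genes and Pbx3 the differences were near 0. Hoxb4 1460379_at differed by 0.05 (SE 0.23, 95% interval -0.48 to 0.57), and by -0.19 without C57B/L6 array 2. With the wider filter Hoxb4 1451761_at differed by -0.07 (95% interval -0.63 to 0.49) and Hoxb2 by -0.01 (-0.55 to 0.53). That filter called 0.15% of 31272 probe sets. Pbx3 1421193_a_at differed by -0.0087 (SE 0.17, 95% interval -0.38 to 0.36) and Pbx3 1447640_s_at by -0.17 (SE 0.16, -0.54 to 0.20).

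Markers of cell types, of which 0 were called by limma beside 0.182% of all tested probe sets, had the following values. Over all tested probe sets the difference was below 0 in 49.8%. Sums and medians take, for each gene, its probe set of highest mean signal. Summed over the stem and multipotent progenitor genes, signal was 13431 to 15636 in C57B/L6 and 12023 to 13683 in B.D(Chr5), with a difference below 0 in 7 of 7 genes and a median of -0.17, beside -0.15 taken the same way over the 6 tested Hox and cofactor genes, 5 of them below 0. Summed over 5 granulocyte-monocyte progenitor genes it was 46262 to 54425 and 57471 to 81965, with 5 of 5 above 0 and a median of 0.56. The 5 B lymphoid genes summed to 1187 to 1530 and 1629 to 4201, with 5 of 5 above 0 and a median of 0.82. All 5 were highest on B.D(Chr5) array 3. On Ebf1 1448293_at the other B.D(Chr5) arrays read 120.4 and 120.0, below the C57B/L6 values of 129, 162 and 153. In Vpreb1 1449869_at and Igll1 1420176_x_at every B.D(Chr5) value lay above those of C57B/L6, beside 4.14% of all tested probe sets. The same held for all 5 granulocyte-monocyte progenitor genes, Ltf and Kitl 1415855_at, and the reverse for Cd3d and Hlf 1434735_at. Stroma, bone and endothelium genes summed to 405 to 1457 and 1335 to 2155, with 4 of 4 tested above 0 and a median of 0.96. Medians of the other lists were 0.37 for mature myeloid (3 of 3 above 0), -0.24 for T and NK (2 of 3 below 0), -0.13 for megakaryocyte (4 of 4 below 0) and -0.05 for erythroid genes (3 of 4 below 0). The part of cell makeup in the Hox and Meis1 values was not tested.

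Genes that set or read the Hox programme gave 0 calls, beside 0.182% of all tested probe sets. At that share 0 calls in lists of this size is no result about these genes. Over all tested probe sets the difference was below 0 in 49.8%. All 12 genes of the MLL complex and its elongation partners, which keep Hox genes active, were above background on all 6 arrays, with a median difference of -0.01 and 8 of 12 below 0. The smallest p values there belonged to Mllt1 1421060_at, an elongation partner, with a difference of 0.42 (C57B/L6 147 ± 21.0, B.D(Chr5) 202 ± 15.0, n = 3 and SD for each strain), and to Mllt3 1431890_a_at, which differed by -0.29. Of 11 Polycomb genes, whose products silence Hox genes, 11 were above background, with a median of -0.00 and 6 below 0. Rnf2, the core ubiquitin ligase of the complex, differed by 0.41 on 1448042_s_at but by -0.01 on 1451519_at. Suz12 differed by -0.24 on 1449661_at and on 1420022_s_at. On its brighter probe sets it differed by 0.09 (1420021_s_at), 0.08 (1452364_at) and -0.05 (1427253_s_at), so its probe sets gave no common direction. The Cdx genes, which turn on Hox genes in the embryo, gave 0 of 3 genes above background on all 6 arrays.

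Genes known to lie downstream of Hoxa9 and Meis1 in blood cells were measured too. All 11 were above background on all 6 arrays, 10 were tested and 0 were called, beside 0.182% of all tested probe sets. Of the 10, 8 were below 0, beside 49.8% of all tested, with a median of -0.08. Id2, an inhibitor of differentiation factors, differed by -0.38 on 1422537_a_at, where C57B/L6 had 1004 ± 179 and B.D(Chr5) 763 ± 88.9 (n = 3, SD), by -0.50 on 1435176_a_at and by 0.00 on 1453596_at. Hif1a, the oxygen-sensing factor that Meis1 acts on in stem cells, differed by 0.42 on 1448183_a_at and by -0.04 and 0.04 on its other tested probe sets. Within both genes the probe sets differed in size or sign, and the lowest adjusted p of either was 0.929. In the other cofactors Pknox1 1421233_at differed by 0.18 (95% interval -0.11 to 0.46), Pbx2 1418893_at by 0.03 and Pbx4 1449916_at by -0.14. The brighter Pknox1 1437470_at and 1450172_at both differed by 0.12. Pbx2 1418894_s_at differed by 0.06 but Pbx2 1449261_at by -0.18. Pbx4 1454912_at, above background on 5 arrays, differed by -0.48 (-1.34 to 0.38). Hoxa3 1427433_s_at differed by -0.02 (95% interval -0.52 to 0.49) and Hoxb3 1456229_at by -0.15 (-1.02 to 0.72). With the wider filter the dimmer Hoxa3 1452421_at differed by -0.45 (-1.09 to 0.19).

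The highest and the lowest value of each probe set were also counted by array. Of the 13 probe sets above background on all 6 arrays, 6 were highest on C57B/L6 array 3, 3 on B.D(Chr5) array 3 and 0 on C57B/L6 array 1. The lowest value fell on C57B/L6 array 1 for 4 and on B.D(Chr5) array 1 for 4. The highest and lowest of 6 values fall on single arrays in any case, and probe sets of a gene are not independent. These counts therefore do not separate arrays from strains, and no counts over all probe sets stand beside them. Signal of 18S ribosomal RNA, which poly(A) priming should largely leave out, ranged from 1726 on B.D(Chr5) array 1 to 20010.3 on B.D(Chr5) array 2. Its part in the spread was not tested.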

How the data were processed

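Lineage-negative marrow RNA of 3 C57B/L6 and 3 B.D(Chr5) samples was measured on 6 arrays. The deposited values are linear probe set intensity, computed by the authors in MAS5 according to the labels and the submitters' processing notes; the version is not given in the sources used here. MAS5 scales each array as a whole, so values are relative to an array's total.

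The table held 45101 probe sets, and 64 controls were left out. Of the rest, 34945 had 1 symbol in the platform annotation, 932 several and 9160 none; 34741 of those with 1 symbol were matched to RefSeq (GRCm38.p6) by Entrez gene. No arrays were duplicates (0 identical pairs).

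Signals were turned into log2(signal + 16). The upper 50% of probe sets by mean signal were tested with limma 3.58.1 in R 4.3.3 (lmFit, eBayes with trend; two-sided; Benjamini-Hochberg threshold 0.05), a script tested on simulated data first. Strain was the only term. A gene was above background if any of its probe sets was, on all 6 arrays. Having only 3 arrays a strain limits precision.

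The members, gene lists and marker lists were chosen with earlier results of these data known. Named were all members, each called gene of a list or else its 2 genes of smallest p, and every other Hox, Meis, Pbx or Pknox gene above background on all 6 arrays. Alternatives changed the pseudocount, filter, normalisation, variance model, background level, replicate block and arrays left out.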

Additional observations from a re-analysis of the deposited data

How the results depend on the processing

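Called members stayed at 0 in all 16 alternative fits, where the lowest adjusted p of any member probe set in limma was 0.361. That value was for Meis1 1450992_a_at, at -0.57, without the array of highest 18S signal in each strain, an alternative chosen after seeing the data, under which 39 probe sets were called on the whole array. Of 165 recomputed log2 differences 155 kept their direction and 10 turned: Hoxa9 1421579_at was -0.0070 with quantile normalisation and ran from -0.15 to 0.16 with 1 array left out, Hoxa10 1431475_a_at from -0.29 to 0.27, Hoxb4 1460379_at from -0.19 to 0.17, Meis1 1443260_at from -0.35 to 0.13 and Pbx3 1421193_a_at from -0.11 to 0.050. The number of probe sets called on the whole array, 41, became 70 with median centring (34 higher, 36 lower in B.D(Chr5)) and 26 without the trend in eBayes (11 higher). With the replicate number as a block it was 25 (11 lower). Deviations from the strain mean correlated at r = -0.11, -0.20 and 0.19 between same-numbered samples, and at -0.15 to 0.29 between differently numbered ones. With 3 arrays a strain these values cannot show whether the numbers pair samples. With 1 array left out the number called ran from 22 to 74 (10 to 53 higher, 11 to 21 lower). It was 23 without C57B/L6 array 2, 24 without C57B/L6 array 3, 22 without B.D(Chr5) array 1 and 74 without B.D(Chr5) array 2. The cause was not tested. The 13 probe sets and 7 genes above background stayed at those numbers with the highest bacterial control, the 90th percentile and each array left out. Against the 95th percentile of 8 probe sets of other tissues they were 9 and 5 (Hoxa5, Hoxa9, Hoxb4, Meis1 and Pbx3). Signal over background limits Hoxa7, Hoxb2, Hoxb5 and the dim probe sets of Hoxa10, Hoxb4 and Meis1.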

Other observations

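Transcripts on the opposite strand of Hox genes were looked at after their values were seen. Hoxb5os, an antisense gene of the HoxB cluster, was above background on all 6 arrays, where Hoxb5 itself was below it on all 6. Its probe set 1447886_at read 130.0, 129 and 91.1 in C57B/L6 and 67.7, 82.6 and 94.5 in B.D(Chr5), with overlapping strains and a log2 difference of -0.44 (95% interval -0.95 to 0.07, limma adjusted p = 1.00). Hoxd3os1 1430263_at read 3.69, 6.61 and 5.26 in C57B/L6 and 26.9, 45.9 and 23.2 in B.D(Chr5), so the strains did not overlap, but it was above background on 2 arrays only, both B.D(Chr5). Hoxa11os 1452400_a_at, with 1.08, 2.54 and 12.0 in C57B/L6 and 18.6, 33.8 and 15.6 in B.D(Chr5), was above background on 1 array. The other probe set of each transcript was above background on 0 arrays and its strains overlapped: Hoxd3os1 1460056_at had means of 9.37 ± 8.12 in C57B/L6 against 9.33 ± 7.44 in B.D(Chr5), and Hoxa11os 1457646_at 1.30 ± 0.558 against 6.15 ± 5.05 (SD, n = 3). All 4 probe sets were too dim to enter the test, and the background levels of B.D(Chr5) arrays 2 and 3 were also the highest.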
